A study of Mus musculus with 9 samples.

Results

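The tricarboxylic acid (TCA) cycle enzymes described here are 9 genes, Cs, Idh2, Idh3a, Ogdh, Dlst, Suclg1, Fh1, Mdh1 and Mdh2, chosen by their gene names on the array. They took up 19 of the 56605 probes and were 9 of the 37074 gene names on the array. Liver RNA of male mice, with an age of 12 months in the labels, had been hybridised to 9 one-colour Agilent arrays, 3 per group. The study counts this time from the injection, and its text and methods differ on how long the high fat diet was fed. Mice of the AAV-V group had received an adeno-associated virus (AAV) with an empty vector and a normal diet. Mice of the AAV-GP73 group had received an AAV that carries GP73, also on a normal diet. Mice of the AAV-V HFD group had received the empty vector and a high fat diet. The study describes the virus as specific to hepatocytes and the mice as C57BL/6N, and all 3 groups therefore carried an AAV. GP73, encoded by Golm1, is a membrane protein of the Golgi apparatus. Nothing in the labels says whether an array held the RNA of 1 mouse or of a pool, so the p-values measure the spread between these arrays, which may be technical.

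The cycle runs in the mitochondrial matrix, where acetyl groups from pyruvate, fatty acids and amino acids are oxidised to carbon dioxide and the electrons pass to the respiratory chain. Citrate synthase (Cs) admits acetyl-CoA. Isocitrate dehydrogenases and the 2-oxoglutarate dehydrogenase complex release the carbon dioxide. Succinyl-CoA ligase, succinate dehydrogenase, fumarase and malate dehydrogenase then regenerate oxaloacetate. In liver the cycle also supplies carbon for glucose and lipid synthesis, so several of its reactions have a counterpart in the cytosol.

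Of the 19 probes, 11 were flagged as well above background, here called detected, throughout at least 1 group and were tested, and these covered 8 of the 9 genes. Of all probes, 6591 were tested. The AAV-V arrays were dimmer than the rest. On them 6034 to 6375 of 59305 spots were detected, against 9501 to 10898 on AAV-GP73 arrays and 8183 to 9930 on AAV-V HFD arrays. The median signal of the detected probes was 35.8 ± 2.80 (SD, n = 3) in AAV-V, 113 ± 14.2 in AAV-GP73 livers and 105 ± 25.2 in AAV-V HFD. The spike-in spots, control RNA added at labelling, had a mean log2 signal of 10.59 ± 0.28, 10.45 ± 0.04 and 10.71 ± 0.20. Arrays were therefore scaled on the 2666 probes detected on all 9 arrays. After scaling, the lowest detected signal was 3.76 to 3.94 on the log2 scale on the AAV-V arrays, 1.85 to 2.49 on those with GP73 and 2.04 to 2.81 on those of the high fat diet, so a dim gene could be seen in the latter groups and not in AAV-V. The high fat diet arrays were on a second slide with its own scan, so diet and slide cannot be told apart. AAV-V and AAV-GP73 arrays shared a slide but sat in different columns of it. Golm1 has 1 probe, detected on 0 of the 9 arrays, which leaves the GP73 label unchecked.

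The hepatocyte markers were present on every group's arrays. Of 8 such genes, 7 were detected on all 9, and their summed scaled signal was 16216 to 25847 on the AAV-V arrays, 16353 to 21118 on those with GP73 and 10468 to 15220 on those of the high fat diet. All 8 were tested, and 2 were called higher and 1 lower than in AAV-V with GP73 and likewise with the high fat diet. Red blood cell genes differed between groups. Their summed signal was 375 to 917 on the AAV-V arrays, 3313 to 16632 on those with GP73 and 615 to 1083 on those of the high fat diet. Of the 5, 4 were tested, and 3 were called higher in AAV-GP73 and none in AAV-V HFD. The cholangiocyte markers Epcam and Krt19, the endothelial marker Lyve1 and the stellate cell markers Col1a1 and Lrat were detected on no array. Of the 6 stellate cell genes 3 were tested, and the calls were 1 higher and 1 lower with GP73 and 2 lower with the high fat diet. Their summed signal was 146 to 276 on the AAV-V arrays, 163 to 195 on those with GP73 and 81.4 to 129 on those of the high fat diet. Of 5 endothelial genes 1 was tested and was called higher in AAV-GP73, and of 5 cholangiocyte genes none was tested. The summed signal of the 6 macrophage markers was 94.0 to 114 on the AAV-V arrays, 91.1 to 149.5 on those with GP73 and 105 to 205 on those of the high fat diet. Of these, 3 were tested, and 1 was called higher with GP73 and none with the diet. Over all probes tested, 33.9% were called higher and 17.9% lower with GP73, and 25% and 16.9% with the diet. Whether the cell mixture had a part in the results below was not tested. In whole liver, fewer cells of a type and less RNA per cell cannot be told apart.

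The probes are each 60 bases long. The stretches shown here are the first 30 bases of the Mdh1 and Cs probe pairs, of the Mdh2 probe and of the tested Idh1 probe, because the differences of these probes are set side by side with their place in the transcript. Positions are those of the array design, in the mm9 build, and the strand is that of the gene.
Mdh1, base 754 of the transcript, chr11:21459765-21459824, minus strand: ggaaatcattcatcgacccagtatccagat
Mdh1, base 1313, chr11:21457280-21457339, minus strand: agcaaaatattttaaatagtgtgtgcttta
Cs, base 1435, chr10:127798143-127798202, plus strand: gtccatgagcacggatggcctgatgaagtt
Cs, base 2720, chr10:127799428-127799487, plus strand: tgttgagatggacacactgtaaacccctgg
Mdh2, base 1182, chr5:136266157-136266216, plus strand: tagtttgcgttgatggagggtgttgagtca
Idh1, base 229, chr1:65221829-65221888, minus strand: gcaaggagacgaaatgacacgaatcatttg

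The first comparison asked how the cycle enzymes differed between livers given GP73 and livers given the empty vector on the same diet. All 8 tested genes were called higher in AAV-GP73 by their brightest tested probe. No AAV-V array detected Idh2, Ogdh or Suclg1, so their calls set detected signals against AAV-V readings below the detection limit. Cs and Dlst were each detected on 1 AAV-V array and Fh1 on 2. All of these genes entered the test only through the other groups, where they were higher. Only Mdh1 and Mdh2 could have entered through AAV-V, so the count is a description. The brightest probe was the one with the highest mean over all 9 arrays, which include the groups set against AAV-V. For Mdh1 it was the probe at base 1313, with log2 means of 4.61 (AAV-V), 6.71 (AAV-GP73) and 6.44 (AAV-V HFD). The Mdh1 probe at base 754 had means of 6.19, 5.98 and 5.54 in the same order and was not called. The count for Mdh1 thus rests on a choice between probes of similar mean. A call here needs a 2-fold difference or more together with an adjusted p below 0.05 in limma's moderated test, with Benjamini-Hochberg adjustment over the 6591 probes. The fitted differences ran from 1.38 (Ogdh) to 2.64 (Dlst) on the log2 scale, with a median of 1.95. Both ends rest on AAV-V readings that were in part or wholly undetected. With each undetected AAV-V array at its detection limit, or at its own value where that was higher, they ran from 1.14 (Ogdh) to 2.51 (Fh1), with a median of 1.79. Over all probes tested, 33.9% passed as higher and 17.9% as lower, and the median difference was 0.64. The members' fitted median lay 1.32 above that of all probes. Of the 11 tested member probes, 9 were called higher and none lower.

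Mdh2, the malate dehydrogenase of the mitochondrial matrix, was the only purely mitochondrial member measured on all 9 arrays. Its scaled signal was 73.9, 54.1 and 62.9 on the AAV-V arrays, 136, 283 and 278 on those with GP73 and 228, 210.3 and 230.0 on those of the high fat diet. Every array of the latter groups lay above every AAV-V array. The difference between AAV-GP73 and AAV-V was 1.80 (SE 0.32, limma adjusted p = 0.00064), or 3.49-fold. On the high fat diet it was 1.82 (SE 0.32, limma adjusted p = 0.0011), or 3.53-fold.

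Mdh1, the cytosolic malate dehydrogenase of the malate-aspartate shuttle, had a pair of probes on the same transcript that gave different answers. At base 1313 the scaled signal was 24.9, 19.9 and 29.3 on the AAV-V arrays, 72.1, 113 and 140.3 on those with GP73 and 64.9, 74.7 and 136 on those of the high fat diet. The AAV-V arrays lay below all others, and the log2 differences were 2.10 (SE 0.36, limma adjusted p = 0.00048) and 1.84 (SE 0.36, limma adjusted p = 0.0018). At base 754 the scaled signal was 77.6, 66.6 and 75.0 on the AAV-V arrays, 42.1, 84.8 and 69.7 on those with GP73 and 39.7, 37.1 and 67.8 on those of the high fat diet. These groups overlapped, with differences of -0.21 (SE 0.34, limma adjusted p = 0.59) and -0.65 (SE 0.34, limma adjusted p = 0.12). Both probes were detected on all 9 arrays.

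Within each array, the Mdh1 probe at base 1313 less that at base 754 was -1.58 ± 0.20 (SD, n = 3) on the log2 scale in AAV-V, 0.73 ± 0.30 in AAV-GP73 livers and 0.91 ± 0.17 in AAV-V HFD. This difference does not depend on how arrays are scaled by a shift. The AAV-V values, -1.75 to -1.35, did not overlap those of AAV-GP73, 0.41 to 1.01, or of AAV-V HFD, 0.71 to 1.01. The smallest two-sided p that an exact permutation test allows for 3 arrays against 3 is 0.1.

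The same contrast between a downstream and an upstream probe was measured across the array. The count covered 110 transcripts, Mdh1 included, with a pair of probes at least 100 bases apart, all detected on the 9 arrays. With the sign kept, the downstream probe had the more positive difference of AAV-GP73 from AAV-V in 75, or 68.2%. The median of downstream less upstream was 0.19, with quartiles of -0.09 and 1.08. With AAV-V HFD in place of AAV-GP73 the downstream difference was the more positive in 81, or 73.6%, with a median of 0.25. For AAV-GP73 less AAV-V HFD it was the more positive in 48, or 43.6%, with a median of -0.03. The part of this position difference in the members' results was not tested. Transcript length, RNA integrity and labelling were not measured in these files.

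**Figure D1:**
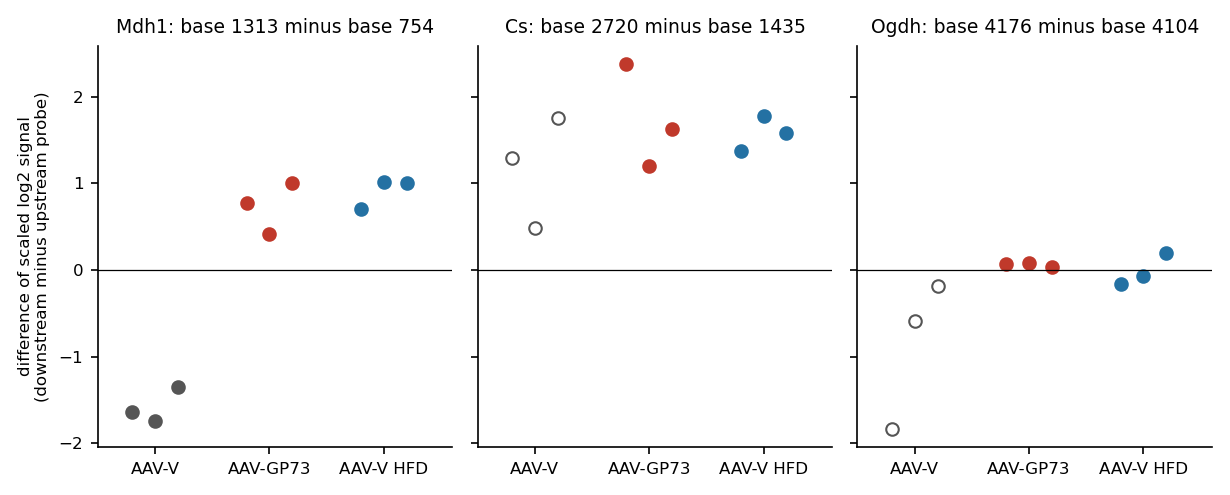
Difference of scaled log2 signal between the downstream and the upstream probe of Mdh1, Cs and Ogdh, named by their first base in the transcript, on each of the 9 arrays (grey AAV-V, red AAV-GP73, blue AAV-V HFD; filled where both probes were detected). For Mdh1 the AAV-V arrays lie at -1.75 to -1.35 and all others above 0; for Cs the groups overlap.

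Cs, citrate synthase, the enzyme of the first step, was probed at bases 1435 and 2720. At base 2720 the scaled signal was 7.31, 17.4 and 11.3 in AAV-V, where only the second array detected it. It was 28.3, 37.3 and 45.6 in AAV-GP73 livers and 42.8, 48.8 and 29.0 in AAV-V HFD, with no overlap with AAV-V. The fitted differences were 1.69 (SE 0.36, limma adjusted p = 0.0019) and 1.80 (SE 0.36, limma adjusted p = 0.0021). With the undetected AAV-V arrays at their detection limit they were 1.24 and 1.35. At base 1435 no AAV-V array was detected, the groups overlapped, and neither difference was called, with a limma adjusted p of 0.094 in the first comparison and 0.050 in the second. The AAV-GP73 and AAV-V HFD means of that probe were below the AAV-V detection limit, so no fold can be given for it. Without the second AAV-V array its fitted differences were 1.79 and 2.06 and both were called, and without the first AAV-GP73 array they were 1.63 and 1.40, also called.

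Idh2, the NADP-dependent isocitrate dehydrogenase of the mitochondrion, was not detected in AAV-V, where its scaled signal at base 1639 was 10.65, 11.1 and 12.9. It was 30.5, 70.1 and 63.0 in AAV-GP73 livers and 41.5, 51.8 and 62.4 in AAV-V HFD. All 6 arrays of those groups were detected and lay above AAV-V. The fitted log2 difference was 2.15 in AAV-GP73 livers (limma adjusted p = 0.00032) and 2.15 in AAV-V HFD (limma adjusted p = 0.00070). Both rest on AAV-V readings below the detection limit. As bounds, which were not tested, the signal was at least 3.54-fold and 3.53-fold higher. These bounds set each AAV-V array at its own detection limit, or at its own value where that was higher. The limit is the lowest detected signal of the array, and an undetected reading can lie above it. Fh1 on the second AAV-V array did so, at 3.94 against 3.87 on the log2 scale. All bounds given here are therefore nominal, and they carry no sampling error. A further Idh2 probe, at base 892, was detected on no array.

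Idh3a, the catalytic alpha subunit of the NAD-dependent isocitrate dehydrogenase, had a single probe that was detected on no array and was not tested. Its scaled signal was 3.44 to 3.82 on the AAV-V arrays, 3.91 to 4.83 on those with GP73 and 1.57 to 7.44 on those of the high fat diet. These values hold no measured difference.

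Ogdh is the E1 subunit and Dlst the E2 subunit of the 2-oxoglutarate dehydrogenase complex, which makes succinyl-CoA. Ogdh at base 4104 read 11.2, 11.8 and 14.0 on the AAV-V arrays, none of which detected it, 21.9, 40.5 and 36.8 on those with GP73 and 21.8, 29.8 and 19.8 on those of the high fat diet. In AAV-GP73 the fitted difference was 1.38 (limma adjusted p = 0.0025), and the bound, which was not tested, was at least 2.20-fold. In AAV-V HFD the fitted difference of 0.93 had a limma adjusted p of 0.024 but fell short of a fold of 2, although the groups did not overlap. Without the third AAV-V array it was 1.02 and without the third AAV-V HFD array 1.05, called in each case. The neighbouring Ogdh probe at base 4176 was called higher in both, with fitted differences of 2.31 and 1.79 (limma adjusted p = 0.0011 and 0.0067). Its bounds, which were not tested, were at least 2.30-fold in AAV-GP73 livers and at least 1.60-fold in AAV-V HFD. A last Ogdh probe was detected on no array.

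Dlst at base 2664 read 17.0, 3.20 and 11.5 in AAV-V, of which only the first array detected it. It read 35.3, 60.9 and 70.3 in AAV-GP73 livers and 46.4, 45.9 and 34.0 in AAV-V HFD, all above the AAV-V arrays. The fitted differences were 2.64 (SE 0.52, limma adjusted p = 0.0012) and 2.28 (SE 0.52, limma adjusted p = 0.0041), against AAV-V readings of which 2 were below the detection limit. With these 2 at that limit the differences were 1.77 and 1.41. The SD of the AAV-V arrays was 1.26 on the log2 scale, the widest of the 3 groups for this probe. The other 3 Dlst probes, designed on other transcript records, were detected on no array.

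Suclg1, the alpha subunit of succinyl-CoA ligase, which makes GTP or ATP from succinyl-CoA, read 12.9, 13.5 and 12.5 in AAV-V, none detected. It read 27.7, 68.7 and 47.4 in AAV-GP73, at least 3.09-fold higher as a bound that was not tested. Its fitted difference there was 1.79 (SE 0.47, limma adjusted p = 0.0065). In AAV-V HFD it read 13.3, 24.8 and 55.3, a spread that overlapped AAV-V at its lower end, and the difference was not called (1.02, SE 0.47, limma adjusted p = 0.086). Without the first AAV-V HFD array it was 1.52 and was called.

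Fh1, fumarase, which hydrates fumarate to malate, read 22.9, 15.4 and 20.8 in AAV-V, the first and the third detected. It read 97.3, 122 and 113 in AAV-GP73, a difference of 2.51 (SE 0.37, limma adjusted p = 0.00023), or 5.68-fold. In AAV-V HFD it read 30.8, 41.4 and 87.9, a difference of 1.31 (SE 0.37, limma adjusted p = 0.012), or 2.48-fold. Without the third AAV-V HFD array, whose value was the highest, that difference was 0.88 and was no longer called.

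**Figure D2:**
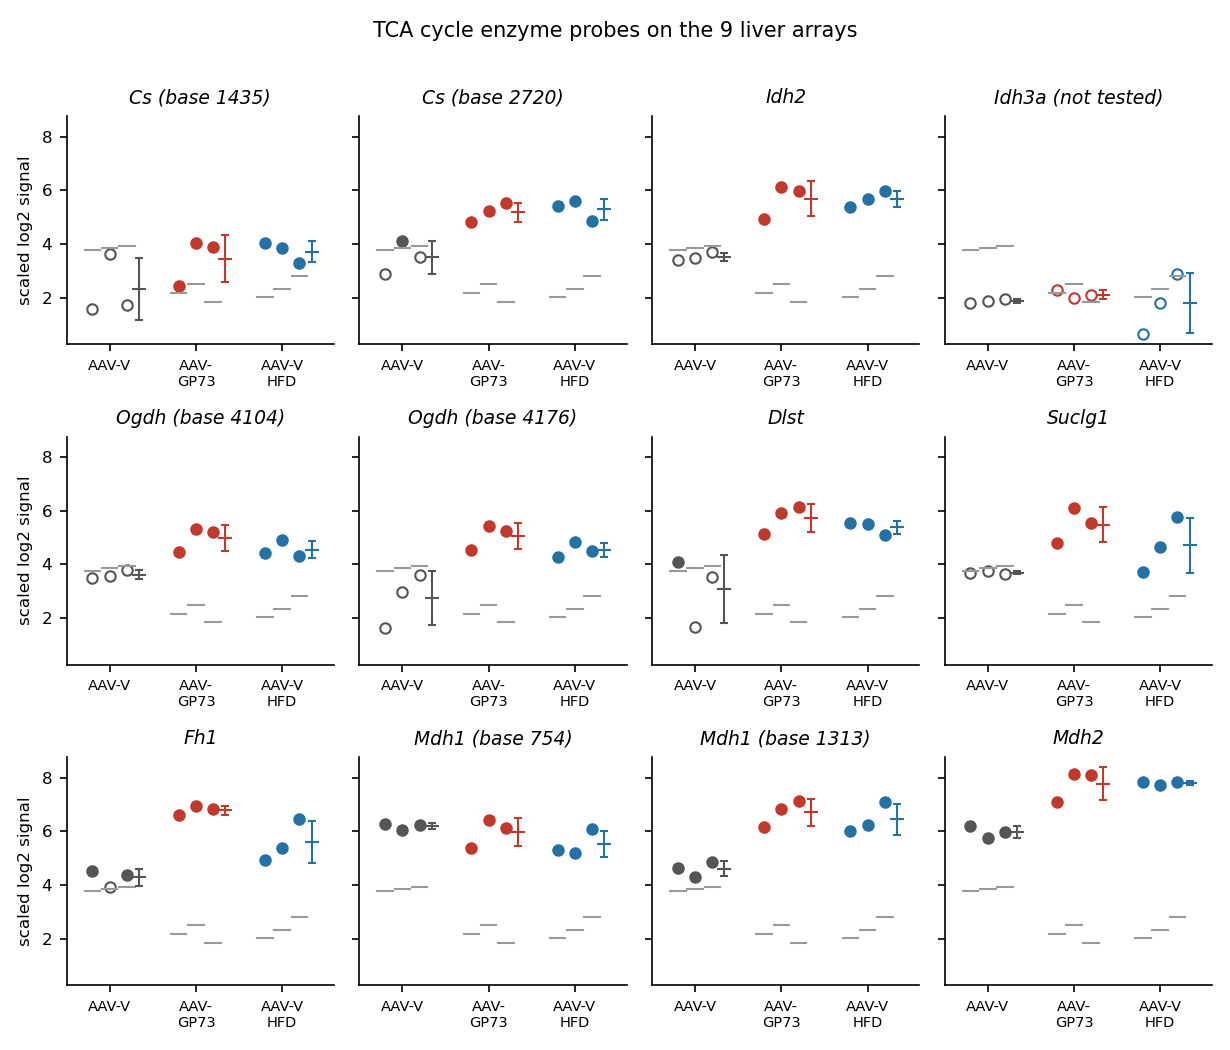
Scaled log2 signal of the 11 tested member probes and the Idh3a probe on each array, with group mean and SD at the right of each set (grey AAV-V, red AAV-GP73, blue AAV-V HFD). Filled points were detected, and grey dashes mark each array's lowest detected signal, which lies at 3.76 to 3.94 in AAV-V and lower elsewhere.

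The second comparison asked how the enzymes differed with the high fat diet in mice given the empty vector. Of the 8 tested genes, 6 (Cs, Idh2, Dlst, Fh1, Mdh1 and Mdh2) were called higher in AAV-V HFD, none was called lower, and Ogdh and Suclg1 did not pass. The median fitted difference was 1.81, against a fitted 0.41 over all probes tested, of which 25% passed as higher and 16.9% as lower. With undetected AAV-V arrays at their detection limit the members' median was 1.38, a setting that was not applied to all probes. By probes, 7 of 11 were called higher. Both comparisons used the same 3 AAV-V arrays, so their values stand side by side and are not separate evidence.

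The third comparison set AAV-GP73 against AAV-V HFD directly. None of the 8 genes was called by limma, against 2.08% of all probes called higher and 0.592% called lower. Leaving out 1 AAV-GP73 array left 32 to 69 of all probes called higher in place of 137. At an unadjusted p under 0.05 limma gave 1065 of the 6591 probes. The members' differences ran from -0.11 (Cs, base 2720) to 1.20 (Fh1), with a median of 0.31. For Mdh2 the difference was -0.02 (SE 0.32) and for Idh2 it was 0.00 (SE 0.34). Fh1 read 97.3 to 122 against 30.8 to 87.9, with a difference of 1.20 (SE 0.37, limma adjusted p = 0.12). Without the third AAV-V HFD array its difference was 1.63 and was called. The Fh1 groups did not overlap, but how often this held over all tested probes was not counted.

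**Figure D3:**
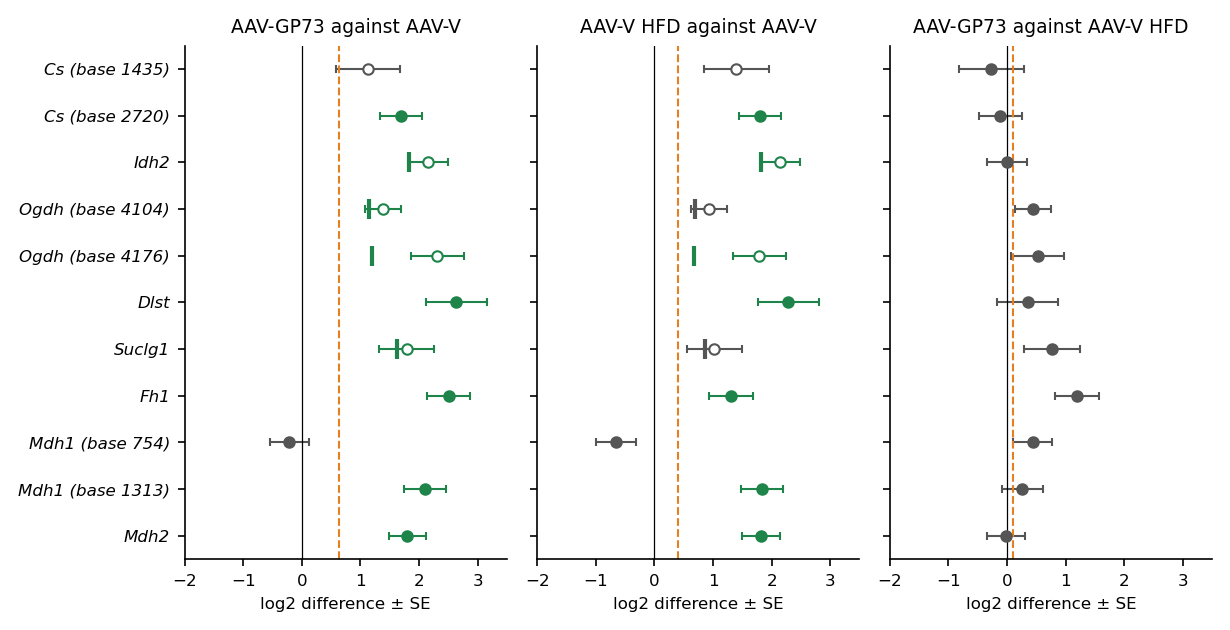
Log2 difference of each tested member probe with its standard error in the 3 comparisons; green marks a call, open points a probe that no array of the AAV-V group measured, and the short vertical bar the lower bound where it lies above 0. The dashed line is the median of all tested probes (0.64, 0.41 and 0.10); the Mdh1 probe at base 754 lies left of 0 in the first 2 panels.

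Several of the genes called higher were not measured on the AAV-V arrays. Of the 8 genes, 3 (Idh2, Ogdh and Suclg1) had no AAV-V array that detected them, 3 (Cs, Dlst and Fh1) had some, and 2 (Mdh1 and Mdh2) had all. Where only the 2666 probes measured on all 9 arrays were tested, Mdh2 and the Mdh1 probe at base 1313 were called higher in both. The Mdh1 probe at base 754, also measured on all 9, was not called. In that test 16.1% of all probes passed as higher and 30.8% as lower with GP73, and 11.9% and 28.8% with the high fat diet. The median difference of these 2666 probes from AAV-V was -0.11 with GP73 and -0.27 with the diet.

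The size of the rise moved with the scaling. With arrays scaled to the 75th percentile of all probes, detected or not, 66.4% of all probes were called higher in AAV-GP73 livers and 58.3% in AAV-V HFD, the median difference of all probes was 1.63 and 1.36, and all 8 genes were called in both. With the spike-in spots the medians of all probes were 2.32 and 1.74. Under these scalings the Mdh1 probe at base 754 changed sign, to 0.78 and 1.47 in AAV-GP73 and to 0.30 and 0.68 in AAV-V HFD. With normexp background correction and an offset of 50, which is larger than the median detected AAV-V signal, no member was called in any comparison, and Cs, Ogdh and Suclg1 turned to negative differences in both.

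**Figure D4:**
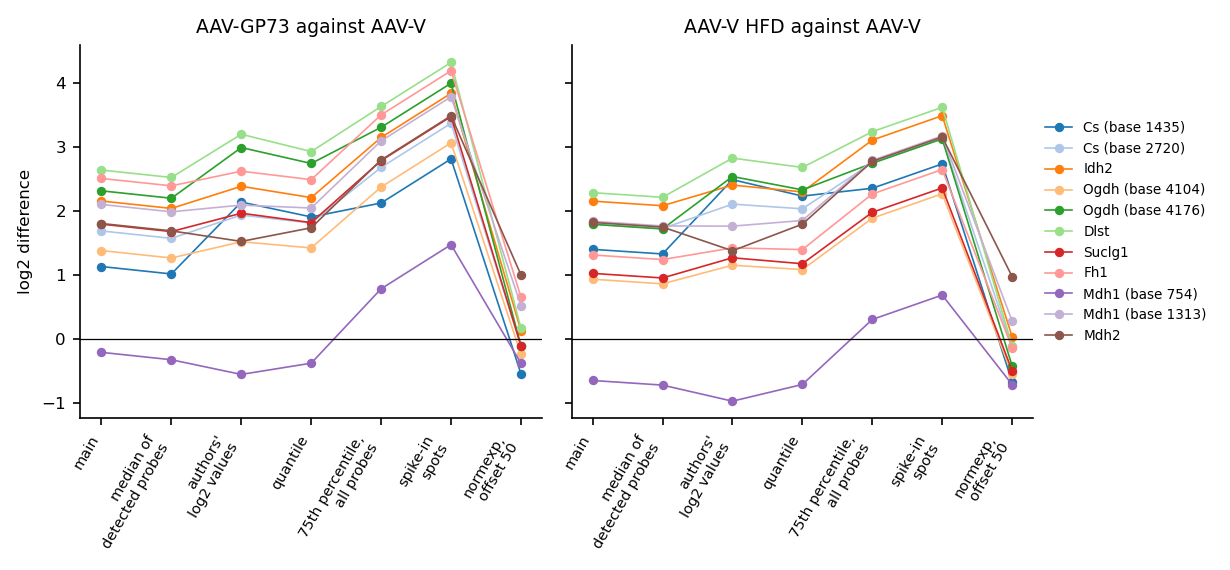
Log2 difference of each tested member probe from AAV-V under 7 ways of scaling or correcting the arrays, in AAV-GP73 (left) and AAV-V HFD (right); each line joins the values of 1 probe. The differences grow toward the spike-in scaling and fall near 0 with normexp and an offset of 50, where Mdh2 stays highest at 1.00 and 0.97.

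The arrays of a group did not vary evenly. In AAV-GP73 the first array was the lowest of the 3 for all 11 tested member probes, which cover 8 genes, and the second was the highest for 8 probes. In AAV-V each array was the lowest for some probe (5, 5 and 1). The order of the arrays over all tested probes was not counted, so it may not be particular to the members. The mean of the members' brightest probes, each centred over the 9 arrays, was -1.43 to -1.08 on the AAV-V arrays, 0.24 to 1.07 on those with GP73 and 0.16 to 0.67 on those of the high fat diet. Outside the members, the 5 gene names whose pattern over the 9 arrays was most like that mean, among 2433 measured on all arrays, were Chchd2 (Pearson r = 0.995), Etfb (r = 0.993), Aldh7a1 (r = 0.992), Bnip3 (r = 0.992) and an Ensembl transcript without a symbol (r = 0.991). These r values over n = 9 arrays are a description, and the 3 AAV-V arrays lay apart from the other 6 in the mean itself. Etfb is a subunit of the electron transfer flavoprotein of fatty acid oxidation, and Aldh7a1 is an aldehyde dehydrogenase of lysine breakdown.

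The rest of the cycle was taken from 9 further genes, of which 7 were tested. All 7 were called higher in AAV-GP73, with a median of 1.71, and 6 in AAV-V HFD, with a median of 1.53, beside 33.9% and 25% of all probes. No AAV-V array detected 5 of the 7, and Sdhd was detected on 2 of the 3 AAV-V arrays. All of these entered the test only through the other groups. With the 5 at their bounds the medians were 1.09 and 0.81. The 7 included every subunit of succinate dehydrogenase, the enzyme shared by the cycle and the respiratory chain. Sdhb, its iron-sulfur subunit, was measured on all 9 arrays by its brighter probe and rose by 1.73 (SE 0.33, limma adjusted p = 0.00096) in AAV-GP73 and 1.53 (SE 0.33, limma adjusted p = 0.0030) in AAV-V HFD. That probe starts at base 1017 of the transcript. The dimmer probe, at base 310, gave 0.70 and 0.34, not called.

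Of the other genes of the cycle, Sdha, the flavoprotein subunit, was at least 2.42-fold and 1.76-fold higher, and Idh3g, a regulatory subunit of the NAD-dependent isocitrate dehydrogenase, at least 1.91-fold and 1.58-fold. Sdhc, a membrane anchor of succinate dehydrogenase, was at least 2.13-fold and 2.56-fold higher. For Idh3b and Suclg2, called higher in AAV-GP73, the bright group's mean lay below the AAV-V detection limit, so no fold can be given.

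Genes of pyruvate entry were called in both directions. Of 13, 6 were tested, 2 were called higher and 1 lower in each comparison, beside the shares of 33.9% higher and 17.9% lower with GP73 and 25% and 16.9% with the diet over all probes. The median was 0.53 in AAV-GP73 livers and 0.65 in AAV-V HFD, and it turned to -0.28 and -0.21 with the 2 genes that no AAV-V array detected at their bounds. Without the third AAV-V HFD array, 1 was called higher on the diet. Mpc1, a subunit of the mitochondrial pyruvate carrier, rose by 1.65 (SE 0.30) and 1.49 (SE 0.30), and Mpc2, its partner, was at least 2.85-fold and 1.95-fold higher. Pdk1, a kinase that inactivates pyruvate dehydrogenase, fell by 1.61 (SE 0.25, limma adjusted p = 0.00032) in AAV-GP73 and by 1.62 (SE 0.25, limma adjusted p = 0.00067) in AAV-V HFD. The called Pdk1 probe starts at base 402. The Pdk1 probe at base 3195 of the same transcript, which no AAV-V array detected, gave 0.44 and -0.09, not called.

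Of 13 genes of anaplerosis and the mitochondrial shuttles, 8 were tested. In AAV-GP73, 6 were called higher and 1 lower, beside 33.9% and 17.9% of all probes, and in AAV-V HFD 4 and none, beside 25% and 16.9%. Slc25a13, the aspartate-glutamate carrier of liver, was at least 2.50-fold and 1.58-fold higher, and Got2, the mitochondrial aspartate aminotransferase, at least 2.37-fold and 2.09-fold. Pcx, pyruvate carboxylase, which makes oxaloacetate, was called higher with fitted differences of 1.95 (SE 0.57) and 2.01 (SE 0.57), but only 1 of the 3 AAV-V arrays detected it, and the AAV-V mean of 3.28 ± 1.54 on the log2 scale lay below their detection limits. Glud1, glutamate dehydrogenase, rose by 1.50 (SE 0.39) and 1.16 (SE 0.39) by its probe at base 2857. The dimmer Glud1 probe at base 1450 of the same transcript, which no AAV-V array detected, was called in neither comparison. Slc25a11, the oxoglutarate-malate carrier, rose by 1.06 (SE 0.33) in AAV-GP73 and gave 0.89 in AAV-V HFD, not called. Slc25a1, the citrate carrier, fell by 1.20 (SE 0.33, limma adjusted p = 0.0082) in AAV-GP73 and gave -0.59 in AAV-V HFD, not called.

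Got1, the cytosolic aspartate aminotransferase, was among the genes that differed in sign between the comparisons. Its brightest probe, at base 1962, rose by 2.14 (SE 0.74, limma adjusted p = 0.026) in AAV-GP73 and gave -0.24 (SE 0.74) in AAV-V HFD, and the direct difference of 2.37 was not called (limma adjusted p = 0.12). A pair of dimmer Got1 probes, at bases 947 and 521 of their transcript records, were called lower in AAV-V HFD, with fitted differences of -2.48 and -2.73 and overlapping groups. Each was detected on 1 of the 3 AAV-V HFD arrays, and the probe at base 521 on 1 of the 3 AAV-V arrays, so the sizes rest on readings below the detection limit. In AAV-GP73, where all 3 arrays detected both of these dimmer probes, neither was called. Dhtkd1, a relative of Ogdh that acts in lysine breakdown, gave 0.16 and -0.04, neither called.

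Relatives of the members were called in both directions. Idh1, the cytosolic NADP-dependent isocitrate dehydrogenase, was called lower in both comparisons at base 229. It read 56.6, 103 and 170.4 on the AAV-V arrays, 10.8, 7.44 and 6.72 on those with GP73 and 17.3, 7.64 and 15.4 on those of the high fat diet. All arrays were detected and the groups did not overlap with AAV-V. The differences were -3.61 (SE 0.43, limma adjusted p = 9.2e-05) and -2.98 (SE 0.43, limma adjusted p = 0.00047). The Idh1 probe further downstream, at base 1358 of another transcript record, was detected on no array. Mdh1b, a relative of Mdh1, fell by 2.50 (SE 0.38, limma adjusted p = 0.00027) in AAV-GP73 and gave -0.90 in AAV-V HFD, and it was lower in AAV-GP73 than in AAV-V HFD by the direct test, at -1.60 (SE 0.38, limma adjusted p = 0.047). Aco1, cytosolic aconitase, was called higher in both, with its mean below the AAV-V detection limit, so no fold can be given.

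**Figure D5:**
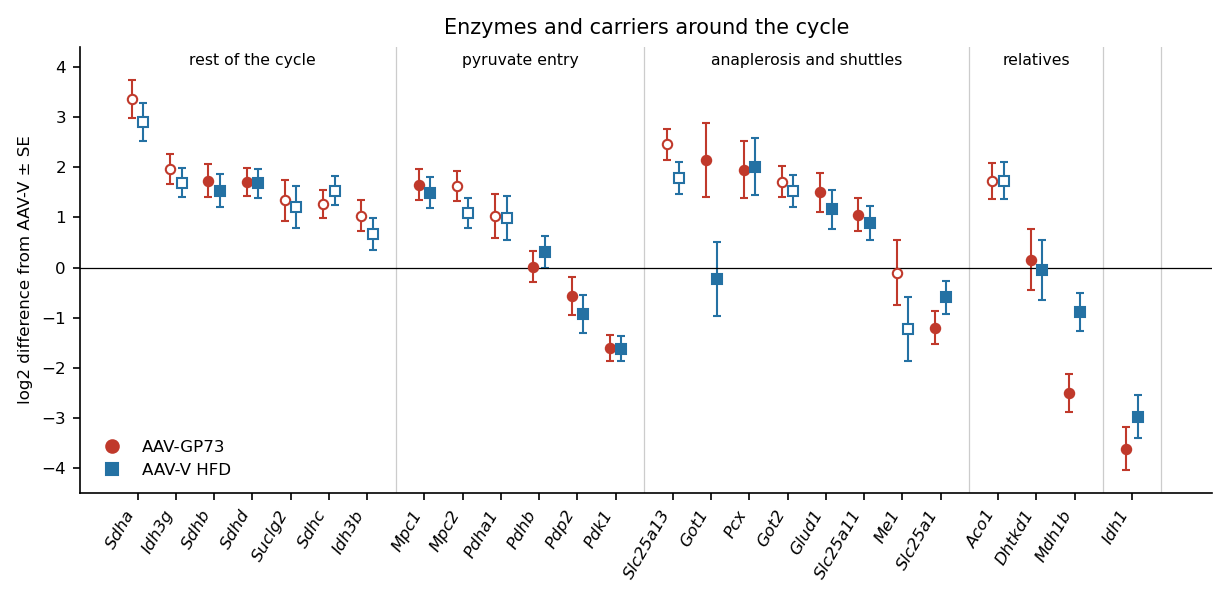
Log2 difference from AAV-V with its standard error for the tested genes around the cycle, by their brightest tested probe (red circles AAV-GP73, blue squares AAV-V HFD; open where no AAV-V array was detected). The genes of the rest of the cycle all lie above 0, while Pdk1, Pdp2, Slc25a1, Me1, Mdh1b and Idh1 lie below 0 in both.

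The promoters of the members were also read for short motifs. RefSeq's table held promoters of 8 of the 9 genes, 13 windows in all because Ogdh has several starts, in the GRCm38.p6 build. The 250 bases before each start were searched on both strands. The GC box GGGCGG, bound by SP1, was found for 7 genes, all but Suclg1, and for 35.4% of the 27025 genes in the table. The windows of the members were 50.0% to 74.0% G and C, against a median of 52.4% over all windows. The core CCGGAAG of the ETS factors, which include GABPA, was found for none of the 8 and for 7.83% of all genes. The element AAGGTCA, bound by ESRRA, was also found for none, and for 4.7% of all genes. The NRF1 core GCATGCG was found for Ogdh alone and for 3.43% of all genes. A match is a run of letters and not a shown site, and motifs may overlap in 1 run.

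Promoters of Cs, the entry enzyme, of Mdh2, the member measured best, and of Suclg1, which has no match, are shown from 250 bases before the start up to it. Capitals mark the GC box on either strand.
Cs, chr10:128337477-128337726, plus strand: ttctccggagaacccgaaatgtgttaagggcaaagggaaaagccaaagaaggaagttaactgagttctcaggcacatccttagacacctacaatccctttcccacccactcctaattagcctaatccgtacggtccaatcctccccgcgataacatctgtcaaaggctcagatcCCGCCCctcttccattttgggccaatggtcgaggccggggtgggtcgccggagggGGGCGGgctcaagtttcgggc
Mdh2, chr5:135778399-135778648, plus strand: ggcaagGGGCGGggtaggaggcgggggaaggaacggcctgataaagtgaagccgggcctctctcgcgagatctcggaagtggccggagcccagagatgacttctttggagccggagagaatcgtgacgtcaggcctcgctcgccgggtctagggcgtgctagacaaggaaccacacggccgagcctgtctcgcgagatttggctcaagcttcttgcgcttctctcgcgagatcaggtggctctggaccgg
Suclg1, chr6:73248255-73248504, plus strand: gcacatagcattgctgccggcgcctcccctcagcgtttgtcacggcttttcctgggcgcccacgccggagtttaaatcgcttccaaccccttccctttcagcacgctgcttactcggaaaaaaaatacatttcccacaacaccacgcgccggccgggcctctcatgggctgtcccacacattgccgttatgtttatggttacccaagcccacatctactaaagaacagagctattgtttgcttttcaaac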

How the data were processed

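Per the labels, total RNA of mouse liver was amplified, labelled with Cy3 and hybridised to 1-colour Agilent arrays. The submitters' processing notes name Agilent Feature Extraction 10.7 and limma, while the deposited files' headers give Feature Extraction 12.0.3.1 and the mm9 build. The deposited processed signal intensity is background-subtracted by that software. The authors' log2 value table, with column medians of 0.799 to 0.801, was used as an alternative only, and how it was centred is not given in the sources used here.

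The log2 processed intensities of each probe's unflagged spots (98 to 151 flagged per array, 0 saturated) were averaged. Arrays were scaled to a common 75th percentile over the 2666 probes flagged as well above background (detected) on all 9 arrays. Probes detected throughout 1 group or more entered a limma 3.58.1 (R 4.3.3) fit over the 3 groups, two-sided, with Benjamini-Hochberg adjustment over 6591 probes. Calls needed a 2-fold difference or more and an adjusted p below 0.05. A gene was read by its brightest tested probe, the one with the highest mean over the 9 arrays, and every member probe is described. Where no array of a group detected a probe, the fold is a nominal bound. Of the other lists, the genes named were those called lower, the 2 called genes with the largest and the 2 with the smallest rise in each comparison, and those whose sign differed between comparisons, with second probes added after their values were seen. The fit was tested on simulated data. Same-numbered arrays had residual correlations of -0.105 to 0.167, so the numbers were not taken as pairs. With 3 arrays a group, precision is limited by their number. The members and lists were chosen with earlier results of these data known. A gene of the rest of the cycle is not reported here. Promoter sequences are RefSeq's.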

Additional observations from a re-analysis of the deposited data

How the results depend on the processing

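Counts of 8 genes called higher in AAV-GP73 and of 6 to 8 in AAV-V HFD held under the other scalings, without a filter on dim probes, with the authors' log2 values, the brightest probe per gene name, fits of only the groups compared, no fold threshold, moderation with a trend, and the fit with the replicate number as a block (8 and 6 called, and 0 in the direct comparison). Exceptions were normexp with an offset of 50 (0 and 0 called), testing only probes measured on all 9 arrays (2 and 2, where only Mdh1 and Mdh2 have a value) and the methods' t-test (8 and 5 unadjusted, 7 and 4 after Benjamini-Hochberg adjustment). In the direct comparison, 1 member (Fh1) was called with spike-in scaling. Leaving out each array in turn gave 8 to 8, 6 to 7 and 0 to 1 members called; the 1 was Fh1, without the third AAV-V HFD array. With the block, 1 probe not called before, Cs at base 1435 in AAV-V HFD, was called, and no other call of a member probe changed.

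Of the 33 differences of member probes, some changed sign, the cause of which was not tested. Against AAV-V, the Mdh1 probe at base 754 gave 0.78 (AAV-GP73) and 0.30 (AAV-V HFD) with the 75th percentile of all probes, and 1.47 and 0.68 with the spike-in spots. Normexp gave, in AAV-GP73, -0.11 and -0.55 for Cs (bases 2720 and 1435), -0.24 and -0.11 for Ogdh (bases 4104 and 4176) and -0.11 for Suclg1. In AAV-V HFD it gave -0.14 and -0.68 for Cs, -0.55 and -0.42 for Ogdh, -0.11 for Dlst, -0.50 for Suclg1 and -0.14 for Fh1. In the direct comparison, values near 0 changed sign: Mdh2 to 0.022 (75th percentile of all probes), 0.33 (spike-in), 0.026 (normexp) and 0.15 (authors' values); Idh2 to -0.042 (median of detected probes), -0.090 (quantile) and -0.019 (authors' values); Cs to 0.24 and 0.078 (spike-in) and 0.026 and 0.13 (normexp). Leaving out arrays gave ranges of -0.43 to 0.077 for Mdh1 at base 754 in AAV-GP73, and in the direct comparison -0.33 to 0.072 and -0.56 to 0.23 for Cs, -0.22 to 0.38 for Idh2 and -0.20 to 0.33 for Mdh2.

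Counts over all probes also moved with the processing. Probes called higher in AAV-GP73 numbered 2234, against 5122 with spike-in scaling and 152 with normexp, and in AAV-V HFD 1651 against 4433 and 80. Probes called lower numbered 1182 and 1117, against 93 and 79 with spike-in scaling and 44698 and 43357 without a filter on dim probes. Setting undetected AAV-V arrays at their detection limit, chosen after seeing the data, turned no member's sign by its brightest probe. The dimmer Cs probe at base 1435 did turn, from 1.13 to -0.41 with GP73 and from 1.40 to -0.14 with the diet. The dim AAV-V arrays set the limit, since a gene below their detection limit has only a bound there. Levels of different genes were not compared.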

Other observations

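Chchd2, Etfb, Aldh7a1 and Bnip3, whose pattern was most like that of the members, were also higher than in AAV-V in both other groups. For the members, the fitted median was 1.95 and the largest difference 2.64 with GP73, and 1.81 and 2.28 with the diet. Chchd2, a mitochondrial protein of the intermembrane space, was 2.15 higher on the log2 scale in AAV-GP73 and 1.68 higher in AAV-V HFD than in AAV-V. Etfb gave 2.42 and 2.02, Aldh7a1 2.80 and 2.15, and Bnip3, a protein of the outer mitochondrial membrane, 2.46 and 2.00. These 4 genes were picked for their pattern over the same arrays, so the values are a description.

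Of the genes of the cycle and its entry that could not be tested, Dld and Sucla2 belong to the rest of the cycle. Among the genes of pyruvate entry, Dlat, Pdhx, Pdk2, Pdk3, Pdk4, Pdp1 and Pdpr were also not tested. Pdk2 and Pdk4 were each detected on 2 of the 3 AAV-GP73 arrays and on none of the others.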
